A study of Mus musculus with 20 samples.

Results

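The genes described here are 42 genes of DNA replication and mitosis, chosen by name from the working machinery of the cell cycle and its best known regulators. A gene was measured where a probe set carried its symbol and no other in the probe annotation, which held for 41 of the 42 and left out Ccnb1. The array measured 18194 genes in all. The 41 fall into a replication group of 19 genes, a mitosis group of 17, the cyclin D genes Ccnd1, Ccnd2 and Ccnd3, and the inhibitors Cdkn1a and Cdkn1b. Together they had 95 probe sets. A gene was represented by its brightest probe set, and all 41 passed the filter on low signal.

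Expression was measured with Affymetrix Mouse Genome 430 2.0 arrays in whole mouse embryos with the amnion removed. The 8 stages run daily from embryonic day 7.5 (E7.5) to E10.5 and then every other day from E12.5 to E18.5. There were 3 arrays per stage up to E10.5 and 2 per stage from E12.5, 20 in all. Every group was wild type, of the C57BL/6 strain and of mixed sex, kept specific-pathogen free, and no treatment or altered allele is given. Each array received RNA pooled from several embryos, described as biological replication, so the spread between arrays is a spread between pools. A whole embryo is a mixture of tissues, and in such bulk samples fewer dividing cells and less of the RNA per dividing cell cannot be told apart.

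The earlier stages (E7.5 to E10.5) and the later stages (E12.5 to E18.5) form separate array sets. The signal of the middle probe set for the spiked dap RNA was 15.4 to 123 on the 12 earlier arrays and 1985 to 3013 on the 8 later ones, and the medians of single arrays were 67.2 to 91.1 against 156 to 178. Stage and array set therefore cannot be told apart in E12.5 against E10.5, and the main comparisons, E10.5 against E7.5 and E18.5 against E12.5, were made within the sets. Among the earlier arrays, those numbered 1 deviated together (correlation of their deviations from the stage means 0.140 to 0.282), and calls at 2-fold that changed without them are given both ways. The labelled stages were checked against tissue markers: summed signals of 6 skeletal muscle genes went from 7351 at E12.5 to 113430 at E18.5, and of 3 epiblast genes from 19181 at E7.5 to 1100.3 at E10.5. Most of the epiblast sum was Lin28a, with means of 13932 at E7.5, 14347 at E8.5 and 1006 at E10.5. Pou5f1 went from 2765 at E7.5 to 179 at E8.5, and L1td1 from 2484 to 210.

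A cell prepares its replication origins in G1, when the origin recognition complex, Cdc6 and Cdt1 load the ring of Mcm proteins that later unwinds the DNA. Cyclin D with its kinases, and then cyclin E with Cdk2, phosphorylate the retinoblastoma proteins and release E2F factors, which switch on the genes of S phase. Mitotic genes are switched on later, through promoter elements named CHR and CCAAT. Cdkn1a (p21) and Cdkn1b (p27) bind cyclin-dependent kinases and hold cells out of division. In embryos most cells divide fast at first and slow down or stop as tissues differentiate.

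Promoter sequences are shown for a feature that the choice of genes did not use, the letters bound by E2F factors and those of the CHR and CCAAT elements. RefSeq windows (GRCm38.p6) from 250 bases before to 50 after a gene's start were searched on both strands for E2F letters (TTTCCCGC, TTTGGCGC, TTTCGCGC or TTTGCCGC), for CHR letters (TTTGAA or TTCGAA) and for CCAAT. A window was found for 33 of the 42 genes. None of the motifs contains another, although E2F matches on opposite strands can overlap. The stretches below are the 150 bases before the start, 5′ to 3′ on the strand of the gene, with matches in capitals. They were chosen after the matches were seen, to show E2F letters in 3 replication genes and paired CHR and CCAAT letters in 4 mitosis genes.

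Cdc6 (chr11:98908001-98908150, plus strand): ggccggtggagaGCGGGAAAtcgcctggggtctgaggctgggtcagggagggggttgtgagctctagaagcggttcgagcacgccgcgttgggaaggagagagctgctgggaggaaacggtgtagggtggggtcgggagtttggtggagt
Mcm6 (chr1:128359706-128359855, minus strand): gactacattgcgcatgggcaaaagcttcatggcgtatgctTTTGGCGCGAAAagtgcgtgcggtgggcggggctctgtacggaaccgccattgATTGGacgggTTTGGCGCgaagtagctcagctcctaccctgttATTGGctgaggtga
Orc1 (chr4:108579304-108579453, plus strand): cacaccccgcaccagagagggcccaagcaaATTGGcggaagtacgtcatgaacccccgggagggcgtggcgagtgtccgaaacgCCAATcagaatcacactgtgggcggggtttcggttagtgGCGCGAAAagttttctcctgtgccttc
Cdk1 (chr10:69352913-69353062, minus strand): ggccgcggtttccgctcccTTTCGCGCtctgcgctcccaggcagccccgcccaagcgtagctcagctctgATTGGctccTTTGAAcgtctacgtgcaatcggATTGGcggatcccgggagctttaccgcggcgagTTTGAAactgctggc
Cdc20 (chr4:118437344-118437493, minus strand): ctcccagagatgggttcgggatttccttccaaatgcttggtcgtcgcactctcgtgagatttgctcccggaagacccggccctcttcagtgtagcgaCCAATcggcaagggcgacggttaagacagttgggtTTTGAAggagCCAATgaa
Top2a (chr11:99024190-99024339, minus strand): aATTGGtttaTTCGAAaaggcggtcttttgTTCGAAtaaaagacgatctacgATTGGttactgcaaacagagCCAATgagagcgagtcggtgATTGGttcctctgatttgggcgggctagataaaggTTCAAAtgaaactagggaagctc
Ube2c (chr2:164769779-164769928, plus strand): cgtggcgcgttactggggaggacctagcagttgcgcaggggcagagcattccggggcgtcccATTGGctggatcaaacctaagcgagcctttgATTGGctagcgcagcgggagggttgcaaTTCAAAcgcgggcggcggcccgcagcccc

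In the Mcm6 stretch the first run of capitals holds an E2F match on each strand, overlapping, and there are 3 E2F matches in all. The Orc1 stretch has a single E2F match, 27 bases before the start, and 2 CCAAT matches. The Cdk1 stretch is the only one of the 4 mitosis stretches with E2F letters, beside 2 CHR matches. Top2a has 3 CHR and 4 CCAAT matches in its stretch.

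E2F letters were found in 8 of the 16 replication windows (50%), namely those of Mcm3, Mcm5, Mcm6, Mcm7, Cdc6, Cdt1, Orc1 and Cdk2, and in 1 of the 15 mitosis windows (6.67%), that of Cdk1. Of all 32817 promoter windows 2.26% held them. CHR letters were found in 11 of the 15 mitosis windows (73.3%) and in 2 of the 16 replication windows, those of Mcm2 and Mcm7, against 19.2% of all windows. The 11 mitosis genes were Ccnb2, Cdk1, Cdc20, Bub1, Bub1b, Plk1, Aurka, Top2a, Mki67, Kif11 and Ube2c. Each of these 11 windows also held CCAAT, a pairing found in 7.51% of all windows. CCAAT alone was frequent in both groups, 75% of replication and 86.7% of mitosis windows against 37.4% of all. Among other genes of the same processes, listed by function, E2F letters were in 21.3% of 47 replication windows and 6.78% of 59 mitosis windows, and CHR letters in 19.1% and 67.8%. A match is a string of letters, not a bound site, and these shares carry no test.

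**Figure D1:**
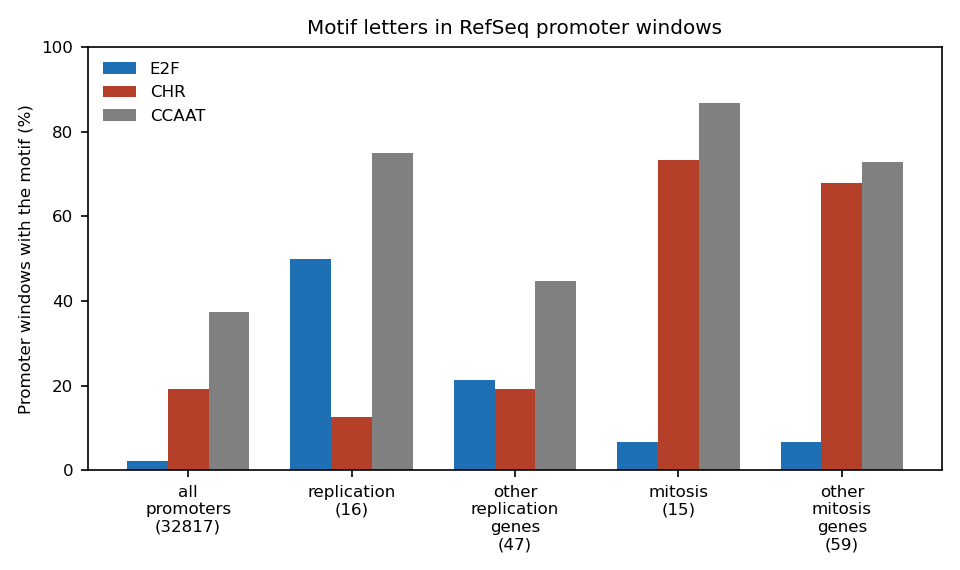
Share of RefSeq promoter windows, in percent, that hold the E2F, CHR or CCAAT letters on either strand, for all promoters, the replication and mitosis groups and other genes of those processes, with the number of windows below each name. E2F letters stand at 50% in the replication group and 6.67% in the mitosis group, and CHR letters stand at 73.3% in the mitosis group and 19.2% of all windows.

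Between E7.5 and E10.5 Ccnd1, Ccnd2 and Cdkn1b rose while genes that prepare replication origins fell. Below, a gene rose or fell where its adjusted p was below 0.05 in limma, adjusted by Benjamini-Hochberg across 14045 tested genes, and it is called where the change was also at least 2-fold. Changes are differences of mean log2(signal + 25.9). Of the 41 genes 4 were called higher, Ccnd1, Ccnd2, Cdkn1b and Mki67, and 2 lower, Orc1 and Ccne1. Over all genes tested 16% were called higher and 7.49% lower, so the count of members called is no larger than the background. With scaling by the 75th percentile 3 members were called higher and 3 lower, and all genes went from 2251 higher and 1052 lower to 1878 and 1455. Without a minimum fold 7 members rose and 18 fell, against 34.3% and 23.8% of all genes. Under quantile normalization these counts were 10 and 12.

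In the replication group 11 of 19 genes fell and 1 rose, with a median change of -0.31 against 0.11 over all genes tested. The changes were mostly small. Orc1, the largest subunit of the origin recognition complex, had signals of 1593, 1289 and 1327 at E7.5 and of 619, 632 and 587 at E10.5. The arrays of the stages did not overlap, and the change was -1.16 ± 0.12 (SE, limma adjusted p = 4.3e-08). Orc1 fell at each of the 3 steps, to 1055 ± 160 (SD, n = 3) at E8.5 and 812 ± 76.7 (n = 3) at E9.5. Averaged over all its probe sets the change was -0.65.

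Ccne1, a cyclin E that activates Cdk2 at the entry into S phase, had 3828, 1615 and 3194 at E7.5 and 1010, 1708 and 1221 at E10.5. An array of E7.5 lies below one of E10.5, so the stages overlap. The change was -1.06 ± 0.29 (adjusted p = 0.0038), and -0.64 without the arrays numbered 1, which ends the call. With that setting included, the call was lost in 6 of the alternative settings. The brightest probe set of Ccne1, used here, is of a kind that may bind related transcripts, and its other probe set read -0.56, which is not a call.

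Several other genes that act at replication origins fell by less than 2-fold. Mcm10, which helps to start the helicase, went from 2426 ± 154 to 1322 ± 65.8 (SD, n = 3 each), a change of -0.86 ± 0.09, with 2595, 2387 and 2295 against 1391, 1260 and 1315 on single arrays. Cdc6 changed by -0.72 ± 0.08 and Cdt1 by -0.52 ± 0.07. Among the Mcm2 to Mcm7 helicase subunits 5 of 6 fell, by 0.26 to 0.48 on the log2 scale, and Mcm3 changed by -0.19 (adjusted p = 0.080). Under quantile normalization Mcm4, Mcm6 and Mcm7 no longer passed, at -0.18, -0.13 and -0.09, so that the falls of those 3 depend on the scaling.

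The genes that supply nucleotides and the sliding clamp were mixed. Rrm1, the large subunit of ribonucleotide reductase, rose by 0.41 ± 0.09 (adjusted p = 0.00038), from 8573 ± 536 to 11362 ± 424 (n = 3 each), although with scaling by the 75th percentile it was 0.21 (adjusted p = 0.057). Its partner Rrm2 changed by -0.04 (95% interval -0.23 to 0.15), and Pcna, the clamp that holds the polymerases on DNA, by -0.03 (-0.29 to 0.23). Gins1 and Gins2, parts of the active helicase, changed by 0.10 and -0.03. Tyms, which makes thymidylate, fell by 0.64 ± 0.25 on the log2 scale, at dim signals of 122 ± 26.1 and 73.1 ± 36.4 (n = 3 each). Its arrays overlapped, with 95.5 to 148 at E7.5 and 34.4 to 107 at E10.5. The other tested probe set of Tyms read -0.06 and did not pass (limma adjusted p = 0.85), so this fall depends on the probe set. Cdk2 and Ccne2 did not pass, at -0.12 and -0.37.

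The mitosis group was mixed: 7 of 17 genes fell, 3 rose and the median change was -0.03. Mki67, the Ki-67 protein that coats mitotic chromosomes and marks dividing cells, had 3554, 3169 and 3255 at E7.5 and 6795, 6804 and 7442 at E10.5. Every E10.5 array was far above every E7.5 array, and the change was 1.07 ± 0.08 (adjusted p = 3.5e-10), or 0.88 with scaling by the 75th percentile. Cenpe, a kinetochore motor, rose by 0.63 ± 0.14. Top2a, which untangles sister chromatids, rose by 0.30 ± 0.09, but by the mean of its probe sets it was -0.20 (adjusted p = 0.068).

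The genes of the mitosis group that fell included regulators of mitotic entry and exit. The kinases Plk1 and Aurka, which act on centrosomes and the spindle, fell by 0.48 ± 0.10 and 0.44 ± 0.07 on the log2 scale. Cdc20, the activator of the anaphase-promoting complex, fell by 0.44 ± 0.10. Kif20a, Mad2l1, Ccna2 and Cdk1 fell by 0.26 to 0.35, and the last 3 of these no longer passed under quantile normalization (adjusted p = 0.098 to 0.12). Ccnb2, Bub1, Bub1b, Aurkb, Birc5, Kif11 and Ube2c did not pass, with changes from -0.20 to 0.21. Under quantile normalization 4 genes of the group fell and 6 rose. The direction of the group's median depends on scaling, at 0.03 under quantile normalization and -0.22 with scaling by the 75th percentile. The median of all genes tested moved from 0.11 to 0.01 and -0.06 in those settings, while the replication median stayed below 0, at -0.17 and -0.50.

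**Figure D2:**
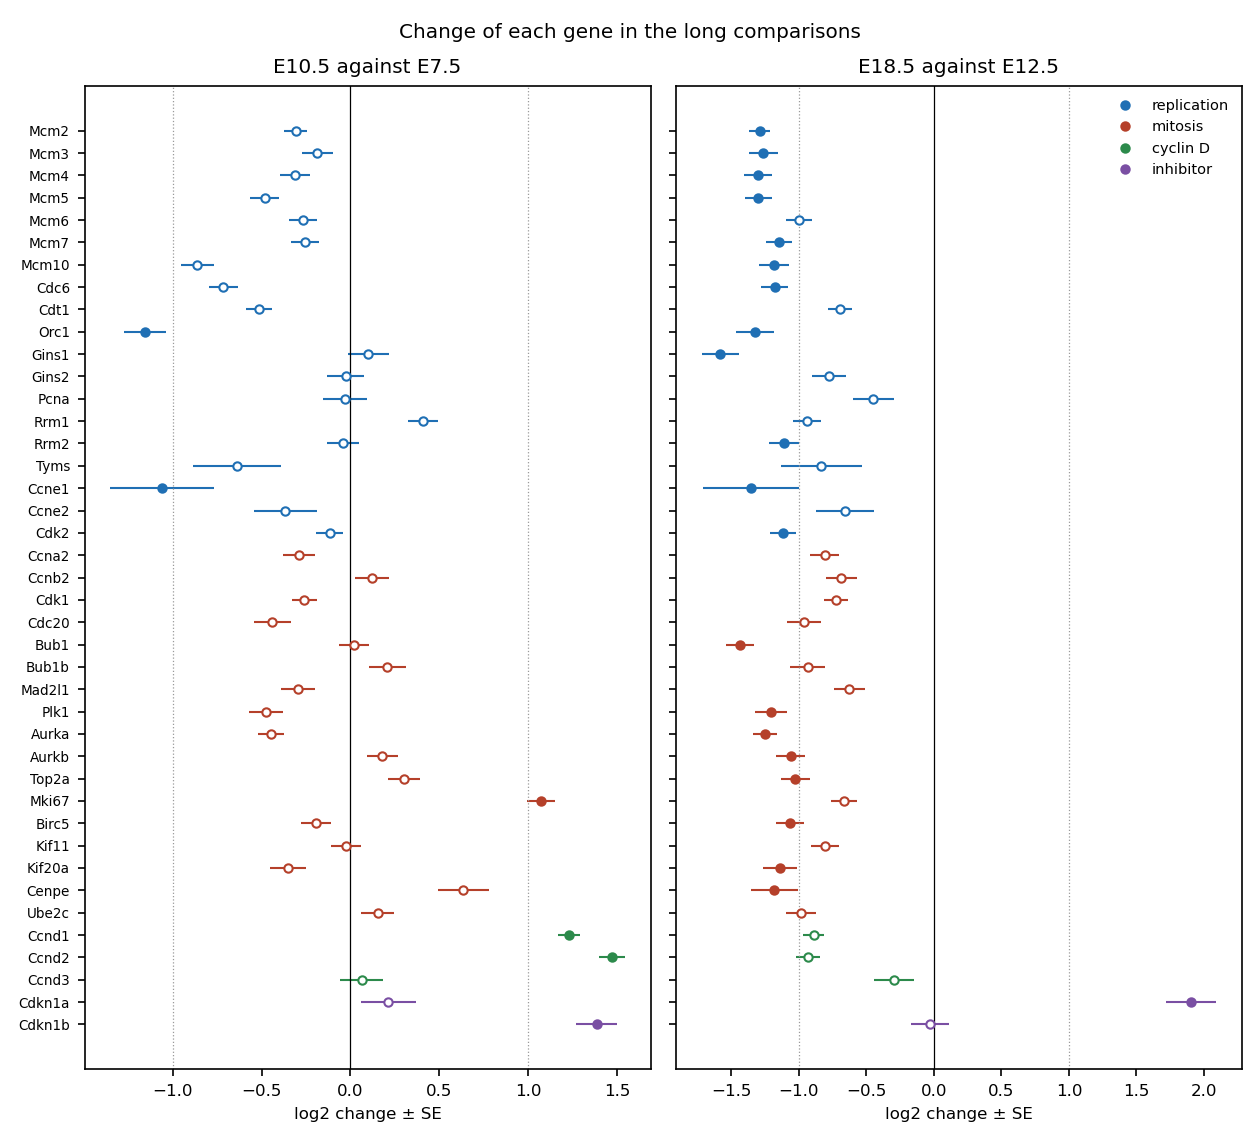
Change of each of the 41 genes, in log2 units with the SE of the fit, for E10.5 against E7.5 (left) and E18.5 against E12.5 (right). Filled points are called, at an adjusted p below 0.05 and at least 2-fold; on the left 4 genes are called higher and 2 lower, on the right 1 higher and 20 lower.

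Of the 41 genes Ccnd2, Cdkn1b and Ccnd1 had the largest changes, in that order. D cyclins join growth signals to the cell cycle. Ccnd2 had 6043, 5231 and 5694 at E7.5 and 16137, 15807 and 15216 at E10.5, a change of 1.47 ± 0.07 (adjusted p = 7.3e-13). Most of it came in the first step, with 13886, 13485 and 13101 at E8.5, and the E8.5 against E7.5 change of 1.25 ± 0.07 was the only call of a member in that step, in which 6.27% of all genes were called higher and 4.93% lower. Ccnd1 had 2246, 2204 and 2317 at E7.5 and 5541, 5182 and 5286 at E10.5, a change of 1.23 ± 0.06 (adjusted p = 1.1e-12). It was at 4112 ± 193 (SD, n = 3) at E8.5 and 4735 ± 157 at E9.5.

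Ccnd3, the other D cyclin, did not pass. It had 3625, 3814 and 3410 at E7.5 and 4387, 3569 and 3428 at E10.5, with overlapping arrays. The change was 0.06 with a 95% interval of -0.19 to 0.31. Its sign turned with scaling by the 75th percentile (-0.13) and without the arrays numbered 1 (-0.044).

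Cdkn1b had 250, 262 and 230 at E7.5, 332, 271 and 313 at E8.5, 513, 513 and 544 at E9.5, and 737, 749 and 586 at E10.5. From E8.5 on, the arrays of each stage lay above those of the stage before. The change over the 3 days was 1.39 ± 0.12 (adjusted p = 2.4e-09), called in every setting run except the mean of its probe sets (0.96). The other inhibitor, Cdkn1a, had 312, 197 and 224 at E7.5 and 305, 297 and 250 at E10.5, which overlap. Its change was 0.21 (95% interval -0.11 to 0.53) and turned to -0.06 under quantile normalization.

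**Figure D3:**
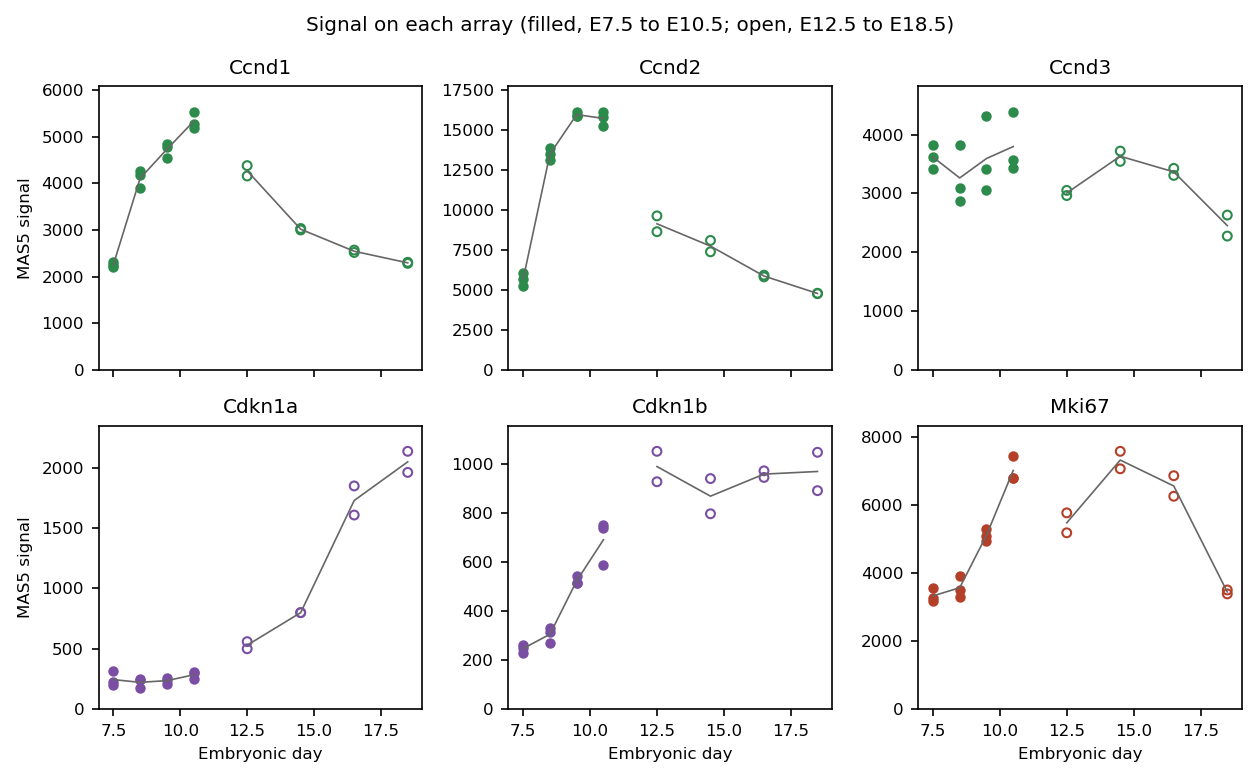
Signal of Ccnd1, Ccnd2, Ccnd3, Cdkn1a, Cdkn1b and Mki67 on each of the 20 arrays against embryonic day, filled for the earlier and open for the later array set, with lines through the stage means within a set. Ccnd2 is at 5231 to 6043 at E7.5 and 15216 to 16137 at E10.5, and Cdkn1a at 500.1 to 559 at E12.5 and 1962 to 2137 at E18.5.

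In single steps of the earlier stages few members passed the test. In E8.5 against E7.5, 4 members rose and 3 fell, against 21.6% and 16.4% of all genes. That balance moved with the setting, to 5 and 1 under quantile normalization, 2 and 8 when scaled by the 75th percentile, and 8 and 4 without the arrays numbered 1. In E9.5 against E8.5, 6 rose and 2 fell, against 9.55% and 6.89%, with Mki67 at 0.52 ± 0.08 and Cdkn1b at 0.73 ± 0.12. In E10.5 against E9.5, 2 rose and 10 fell, against 12% and 6.84% of all genes. Of these 10 falls, 8 were in the replication group and included Cdc6 (-0.50 ± 0.08), Orc1, Mcm10, Cdt1 and Mcm5. When scaled by the 75th percentile 3 rose and 2 fell in E9.5 against E8.5, and 1 rose and 15 fell in E10.5 against E9.5, where under quantile normalization it was 3 and 6. In neither of the last 2 steps was a member called by limma, where 2.48% and 3.15% of all genes were called higher and 1.68% and 0.513% lower. At an unadjusted p below 0.05 there were 11 and 19 members in these steps, and none of them at 2-fold.

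Markers of other tissues moved over the same days. Summed signals of the 4 of 7 trophoblast genes that were measured were 7061 to 12312 on the E7.5 arrays and 423 to 433 on the E10.5 arrays, and were already 819 to 868 at E8.5. Those of 2 of 2 decidua genes were 692 to 1302 at E7.5, 758 to 2667 at E8.5 and 31.6 to 62.9 at E10.5. The decidua sum was nearly all Prl8a2, which averaged 956 at E7.5 and 1486 at E8.5, while Prl3c1 averaged 39.8 and 6.94. Summed signals of 6 of 6 neuron genes were 667 to 742 at E7.5 and 10745 to 11409 at E10.5. Their part in the changes of the replication and mitosis genes was not tested.

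Between E12.5 and E18.5 every gene of the replication and mitosis groups fell, all 36 of them, and Cdkn1a rose. The arrays of these stages did not overlap for any of the 36, against 46.3% of all genes tested that were lower without overlap. At the level of probe sets none of the 27 genes with several tested had calls in both directions. Of the 41 genes 20 were called lower and 1 higher, where 6.44% of all genes were called lower and 15.2% higher. Without a minimum fold 38 members fell and 1 rose, against 29.2% and 24% of all genes. Pcna, the smallest of the falls, was at an adjusted p of 0.052 with scaling by the 75th percentile.

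In the replication group 12 of 19 genes were called lower, and the median change was -1.15 against -0.09 over all genes. Gins1, a subunit of the GINS complex that completes the helicase, had 1295 and 1342 at E12.5 and 405 and 444 at E18.5. The change was -1.58 ± 0.14 (adjusted p = 1.2e-08), a 2.99-fold fall and the largest of the group. Ccne1 had 1160 and 1131 at E12.5 and 465 and 402 at E18.5, a change of -1.35 ± 0.36 (adjusted p = 0.0033). Orc1 had 409 and 416 against 137 and 163, a change of -1.32 ± 0.14 (adjusted p = 2.0e-07), or -0.85 by the mean of its probe sets. In each of these the higher E18.5 array was less than the lower E12.5 array by more than the arrays of a stage differed.

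The Mcm helicase subunits fell together, Mcm2, Mcm3, Mcm4, Mcm5, Mcm7 and Mcm10 by 1.15 to 1.30 on the log2 scale and Mcm6 by 1.00 ± 0.10, just under the 2-fold bound. Mcm2 went from 2741 ± 71.2 to 1108 ± 80.7 and Mcm5 from 5858 ± 511 to 2365 ± 67.9 (SD, n = 2 each). Cdc6 changed by -1.18 ± 0.10, and Cdt1, its partner in loading the helicase, by -0.69 ± 0.09. Cdk2 fell by 1.11 ± 0.10, though the mean of its probe sets gave -0.42 (adjusted p = 0.030). Rrm2 was called at -1.11 ± 0.11, and Rrm1 was at -0.94 ± 0.10. By the brightest probe set the smallest falls of the group were those of Pcna (-0.45 ± 0.15), Ccne2 (-0.65 ± 0.22), Cdt1, Gins2 (-0.77 ± 0.13) and Tyms (-0.83 ± 0.30). The other tested probe sets of Cdt1, Gins2 and Tyms read -1.14, -1.44 and -1.20, so the place of these genes depends on the probe set. Pcna had 12598 and 14016 at E12.5 and 9749 and 9738 at E18.5, so its arrays did not overlap either.

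In the mitosis group 8 of 17 genes were called lower, and the median change was -0.98. Bub1, a kinase of the spindle checkpoint, had 2575 and 2367 at E12.5 and 915 and 880 at E18.5, a change of -1.44 ± 0.11 (adjusted p = 1.0e-09). Aurka had 1854 and 2020 against 792 and 806, a change of -1.25 ± 0.09 (adjusted p = 7.0e-10), or -0.84 by the mean of its probe sets. Plk1 had 1392 and 1230 against 620.5 and 493, a change of -1.20 ± 0.12 (adjusted p = 4.6e-08). All 3 kinases stood clearly lower on both E18.5 arrays.

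The remaining calls in mitosis were Cenpe, Kif20a, Birc5, Aurkb and Top2a, with changes from -1.18 to -1.02. Birc5 (survivin) and Aurkb belong to one complex, the chromosomal passenger complex that corrects attachments to the spindle, and fell by 1.07 ± 0.10 and 1.06 ± 0.11. Ube2c, the ubiquitin-conjugating enzyme of the anaphase-promoting complex, and its activator Cdc20 were at -0.98 and -0.96. The other probe sets of Cdc20 read -0.93 and -2.57. The mitotic kinase Cdk1 and the cyclins Ccna2 and Ccnb2 fell by 0.72, 0.81 and 0.68 on the log2 scale. Mad2l1 and Mki67 fell least, by 0.63 and 0.66.

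The replication and mitosis groups are described side by side, without a test over members. The replication changes ran from -1.58 to -0.45 and the mitosis changes from -1.44 to -0.63. Under quantile normalization the medians were -1.27 and -1.10, and with scaling by the 75th percentile -1.10 and -0.94. All 36 genes stayed below 0 in both settings.

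**Figure D4:**
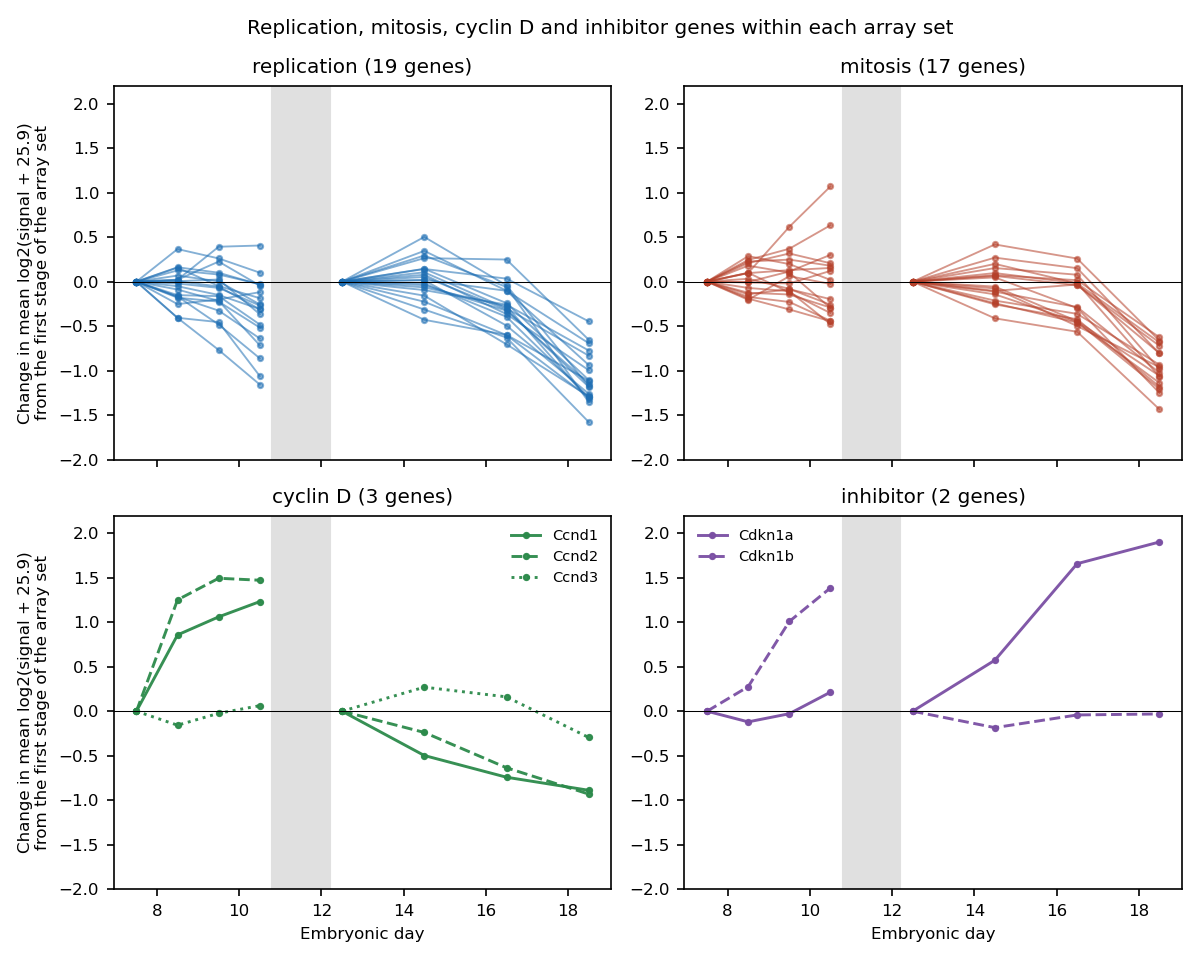
Change in mean log2(signal + 25.9) from the first stage of the array set, against embryonic day, for each of the 41 genes in 4 panels, with the gap between the array sets in grey. At E18.5 the 19 replication genes lie between -1.58 and -0.45 and the 17 mitosis genes between -1.44 and -0.63 of their E12.5 level, while Cdkn1a is at 1.90.

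Ccnd1 and Ccnd2, which rose up to E10.5, fell between E12.5 and E18.5. Ccnd1 had 4161 and 4384 at E12.5, 3001 and 3032 at E14.5, 2517 and 2568 at E16.5, and 2306 and 2282 at E18.5. Each stage lay below the one before, and the fall of 0.89 ± 0.08 on the log2 scale (adjusted p = 8.9e-09) was under 2-fold. Ccnd2 had 8629 and 9619 at E12.5, 7370 and 8082 at E14.5, 5800 and 5909 at E16.5, and 4776 and 4750 at E18.5, a fall of 0.93 ± 0.09 (adjusted p = 3.5e-08). Under quantile normalization both were called, at -1.002 and -1.05. The other probe sets of Ccnd2 ran from -0.93 to -1.38, some of them past the 2-fold bound, and those of Ccnd1 read -0.90 and -0.65. Ccnd3 had 2961 and 3049 at E12.5 and 2629 and 2271 at E18.5, a change of -0.30 with a 95% interval of -0.60 to 0.01, and 0.08 by the mean of its probe sets.

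Cdkn1a was the single member that rose. It had 500.1 and 559 at E12.5, 799 and 800 at E14.5, 1850 and 1609 at E16.5, and 2137 and 1962 at E18.5. Every stage lay above the one before, and the change was 1.90 ± 0.19 (adjusted p = 6.1e-08), a 3.74-fold rise. The other tested probe set of Cdkn1a read 1.24 ± 0.56 and did not pass (limma adjusted p = 0.075). The step from E14.5 to E16.5 was called at 1.08 ± 0.19, but not by the mean of its probe sets (0.85, adjusted p = 0.10) nor without the first E16.5 array, where it fell just under 2-fold (0.99).

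Cdkn1b had 1052 and 928 at E12.5 and 1048 and 891 at E18.5. The arrays of both stages overlapped, and the change of -0.03 had a 95% interval of -0.33 to 0.26. Its sign turned under both other scalings (0.038 and 0.014). Cdkn1b was thus called up to E10.5 and Cdkn1a after E12.5, and the difference between these windows was not tested.

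The fall of the replication and mitosis genes was uneven in time. In E14.5 against E12.5, 3 members rose and 3 fell, against 6.54% and 3.87% of all genes. The 3 rises were Cdc6 (0.50 ± 0.10), Cdt1 (0.35 ± 0.09) and Mki67 (0.42 ± 0.10), and the falls Cdk2, Bub1 and Ccnd1. In E16.5 against E14.5, 14 members fell and 1 rose, against 4.23% and 6.03% of all genes, and only the rise, of Cdkn1a, was called, where 3.6% of all genes were called higher and 0.178% lower. In the replication group 9 of 19 fell, among them Mcm2 (-0.55 ± 0.08), Cdc6 (-0.54 ± 0.10) and Mcm3 (-0.51 ± 0.11), and in the mitosis group 3 of 17, Cdc20, Aurka and Aurkb. When scaled by the 75th percentile 6 members fell, 5 in replication and 0 in mitosis, and by the mean of probe sets 9.

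In E18.5 against E16.5, 37 members fell and none rose in limma, also at an unadjusted p below 0.05, against 8.5% and 7.33% of all genes. That was 18 of 19 replication genes and all 17 mitosis genes, with Tyms, Ccnd1 and the inhibitors outside. The median change was -0.82 in replication and -0.75 in mitosis, against -0.05 over all genes. The 5 members called were Ccne1 (-1.29 ± 0.36), Cdc6 (-1.13 ± 0.10), Ube2c (-1.06 ± 0.11), Birc5 (-1.05 ± 0.10) and Orc1 (-1.05 ± 0.14), where 0.776% of all genes were called lower and 3.52% higher. The call of Ccne1 was lost when any of the 4 arrays was left out. Its SE comes from the one fit to all arrays, which shares the spread between the array sets. The SD of Ccne1 was 358 to 1140 at the earlier stages and 20.9 to 144 at the later ones. Without the first E18.5 array 2 members were called.

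The last step, E16.5 to E18.5, was set against the first late step, E12.5 to E14.5, in a test of their difference within the same fit. These steps share no array. The last step was lower for 25 of the 41 members, 24 of them among the 36 replication and mitosis genes, and for none was it higher by limma (1 at an unadjusted p below 0.05), where 4.57% of all genes were lower and 3.03% higher. At 2-fold 8 members were called, 3 in replication (Cdc6, Ccne2 and Rrm2) and 5 in mitosis (Mki67, Ccna2, Ube2c, Birc5 and Aurka), where 2.31% of all genes were called lower and 1.69% higher. Without the first array of E12.5 or of E18.5 the count was 5.

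Cdc6 had the largest difference, -1.64 ± 0.14 (adjusted p = 3.2e-07). Its signals were 1131 and 1216 at E12.5, 1675 and 1670 at E14.5, 1173 and 1106 at E16.5, and 499.9 and 509 at E18.5. It rose, returned to its first level and then fell below it. Mki67 had 5182 and 5767, 7577 and 7062, 6859 and 6256, and 3501 and 3386, and a difference of -1.34 ± 0.14 (adjusted p = 2.5e-06). Its E18.5 arrays are the lowest of the late set by a wide gap.

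Ccna2, the cyclin of S phase and early mitosis, had 3357 and 3512, 3870 and 4442, 3859 and 3775, and 1880 and 2026 over the same stages, a difference of -1.23 ± 0.15. Ube2c had 5106 and 5542, 5499.5 and 6367, 5457 and 5780, and 2482 and 2895, a difference of -1.21 ± 0.16. Birc5 had 3702 and 3748, 3791 and 4189, 3788 and 3576, and 1792 and 1739, a difference of -1.15 ± 0.15. In all 3 the first 3 stages are close together and E18.5 lies well below them.

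Rrm2 and Aurka were near the 2-fold bound, with differences of -1.01 ± 0.16 and -1.002 ± 0.13. Rrm2 had 7874 and 8284 at E12.5, 8368 and 9535 at E14.5, 6526 and 7140 at E16.5, and 3684 and 3797 at E18.5. Aurka had 1957 and 2047 at E14.5 and 1652 and 1494 at E16.5, and E18.5 lies below both, and by the mean of its probe sets its difference no longer passed (-0.79, adjusted p = 0.19). Ccne2 had 1490 and 1473, 1906 and 1672, 1700.3 and 1833, and 951 and 914, a difference of -1.17 ± 0.30 (adjusted p = 0.021), which was lost in 6 of the 8 settings that leave out a late array (adjusted p = 0.058 to 0.089).

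Some members that fell over the late stages did not pass in the difference. Cdk2 fell by 0.43 ± 0.10 in the first late step and had a difference of -0.09 (95% interval -0.37 to 0.20). For Ccnd2 the difference was -0.06 (-0.32 to 0.20), and for Ccnd1 it was 0.35 (0.13 to 0.58, adjusted p = 0.052). Bub1, the mitosis gene with the largest total fall, had a difference of -0.46 (adjusted p = 0.069).

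**Figure D5:**
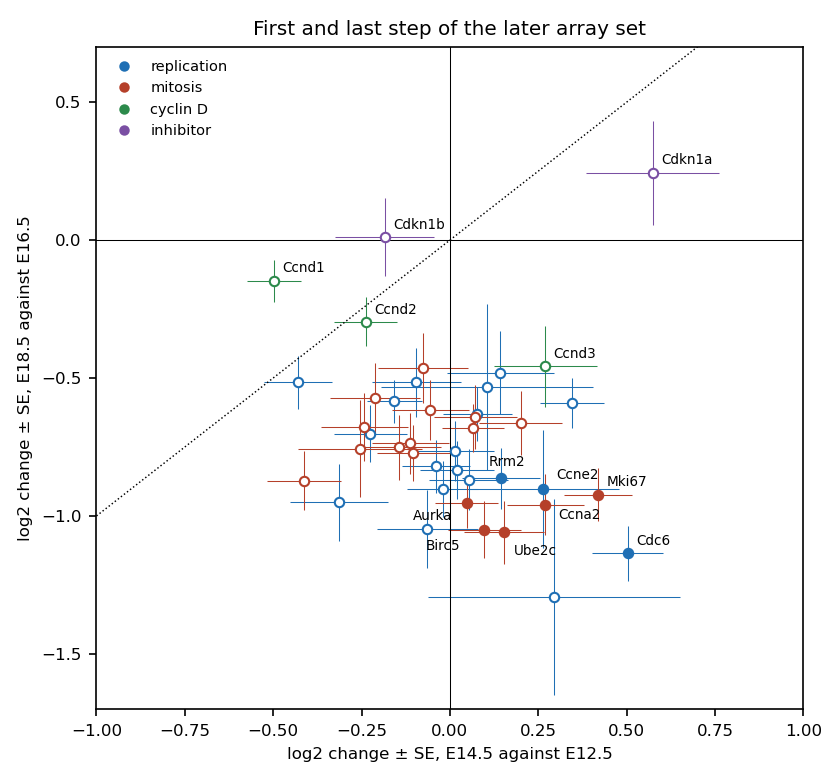
Change of each of the 41 genes from E16.5 to E18.5 against its change from E12.5 to E14.5, in log2 units with SE, the dotted line marking equal change. Filled points are the 8 genes called in the test of the difference, with Cdc6 the farthest below the line at -1.64. All 36 replication and mitosis genes lie below it.

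Tissue markers moved over the same stages. Summed signals of 4 of 4 epidermis genes (Krt1, Krt10, Krt5 and Lor) were 1652 to 1707 at E12.5, 5282 to 5819 at E14.5, 46296 to 62654 at E16.5 and 79060 to 81616 at E18.5. Those of 4 of 4 liver genes were 23767 to 25265 at E12.5 and 114904 to 117736 at E18.5, and those of 6 of 6 skeletal muscle genes 7242 to 7460 and 108318 to 118541. The 4 of 5 erythroid genes that were measured had 68148 to 77082 and 3244 to 3323, and 6 of 6 neuron genes 17580 to 17804 and 8805 to 9789. The erythroid sum fell with the globins Hba-x, Hbb-bh1 and Hbb-y, while Alas2 averaged 2694 at E12.5, 7814 at E16.5 and 3014 at E18.5. In the neuron sum Tubb3, Stmn2, Elavl4 and Dcx fell, while Snap25 went from 890 to 1076 and Syp from 382 to 388. The part of these tissues in the changes of the replication and mitosis genes was not tested.

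Other genes of the same processes, listed by function, moved with the members. In E18.5 against E12.5, 42 of 44 other replication genes fell and 17 were called lower, and 56 of 60 other mitosis genes fell and 22 were called. Of all genes 29.2% fell and 6.44% were called lower. Exo1, a nuclease of repair and replication, changed by -1.56 ± 0.15, Dut, which destroys dUTP, by -1.28 ± 0.09, Chaf1b, which places histones on new DNA, by -1.28 ± 0.13, and Rfc3, part of the clamp loader, by -1.23 ± 0.08. The exceptions in replication were Fen1, a flap nuclease, which rose by 0.74 (adjusted p = 0.013), and Orc3 at -0.22 (adjusted p = 0.21). In mitosis the largest were Tpx2, a spindle assembly factor, at -1.47 ± 0.11, Spc24, of the kinetochore, at -1.45 ± 0.11, Trip13, of the checkpoint, at -1.44 ± 0.09, and the phosphatase Cdc25c at -1.34 ± 0.19.

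In E10.5 against E7.5 the lists had few calls. Of all genes 34.3% rose and 23.8% fell, and 16% were called higher and 7.49% lower. Of 44 other replication genes 16 fell and 8 rose, and 2 were called lower, Ung, which removes uracil from DNA, at -1.28 ± 0.12 and Orc5 at -1.06 ± 0.08. Of 60 other mitosis genes 14 fell and 14 rose, and 2 were called higher, the phosphatase Cdc25b at 1.72 ± 0.11 and Aspm, a spindle pole protein, at 1.11 ± 0.12. Orc5, like Orc1, belongs to the origin recognition complex.

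Regulators of G1 and S phase gave 8 called lower of 25 in E18.5 against E12.5, and 18 fell in all, against 6.44% and 29.2% of all genes. Skp2, which marks Cdkn1b for destruction, had the largest change, -1.68 ± 0.12, from 4745 ± 325 to 1460 ± 66.6 (SD, n = 2 each). Cdk4, the partner of the D cyclins, changed by -1.26 ± 0.09, E2f5 by -1.18 ± 0.17 and Foxm1, an activator of mitotic genes, by -1.15 ± 0.19. In E10.5 against E7.5, 5 of the 25 were called higher and 2 lower, near the shares of all genes (16% and 7.49%). Rb1, the retinoblastoma protein, rose from 113 ± 46.3 to 712 ± 29.4 (n = 3 each, 2.47 ± 0.19), and its relative Rbl2 by 1.77 ± 0.21. Mybl2, an activator of the mitotic programme, changed by -1.43 ± 0.14.

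Of 8 other inhibitors of the cell cycle 4 were called higher in E10.5 against E7.5, and 7 rose, against 16% and 34.3% of all genes. These 4 were Gas1 (2.60 ± 0.19), Cdkn1c (2.00 ± 0.13), Btg2 (1.58 ± 0.15) and Btg1 (1.54 ± 0.12). Cdkn1c, a relative of Cdkn1b, went from 2809 ± 558 to 11128 ± 170 (SD, n = 3 each). In E18.5 against E12.5, where 15.2% of all genes were called higher, 3 of the 8 were, Cdkn2b (2.00 ± 0.41), Cdkn2c (1.22 ± 0.22) and Tob1 (1.18 ± 0.16). Cdkn1c was at -0.18 (adjusted p = 0.36).

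Cdkn1a is a well known target of p53, so the 12 of 13 other p53 targets that were measured were read beside its late rise (Btg2 is also among the inhibitors). Of these 5 rose and 1 fell in E18.5 against E12.5, and 2 were called higher, Perp at 3.47 ± 0.15 and Ccng1 at 1.92 ± 0.09, a count near the 15.2% of all genes called higher. Mdm2, which p53 switches on to limit itself, changed by -0.47 ± 0.14 (adjusted p = 0.0062). Perp, a protein of cell junctions, is also made in epidermis, whose summed marker signals are given above for these stages, and its part was not tested.

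In E12.5 against E10.5, where stage and array set cannot be told apart, 34 members fell and 4 rose, against 21% and 26.5% of all genes. Of these 8 were called lower and 1 higher, against 2.02% and 10.6%. Plk1 (-1.25 ± 0.11), Pcna (-1.19 ± 0.14) and Aurka (-1.15 ± 0.08) had the largest falls, and Tyms was called higher at 1.80 ± 0.27. The scaling matters here: the median of all genes went from 0.12 to -0.11 in both other scalings, all genes called went from 1484 higher and 284 lower to 763 and 556 under quantile normalization and to 939 and 885 when scaled by the 75th percentile. In these settings 5 and 26 members were called.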

How the data were processed

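Whole C57BL/6 embryos of 8 stages were profiled on 20 arrays. The authors deposited linear MAS5 signals, an intensity per probe set, made with MAS5 per the submitters' processing notes, with no version given in the sources used here. On every array the mean after leaving out the lowest and highest 2% was 500.0, so the values are scaled between arrays. Arrays carry no read depth, and their number limits the precision.

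From these values log2(signal + 25.9) was taken, where the pseudocount is the 25th percentile of signals on a typical (median) array. Of 45101 probe sets 34958 have a single gene symbol, 932 have several, 9211 have none and 64 are controls. A gene takes its brightest probe set. Those of Mcm5, Rrm2, Ccne1, Cdc20 and Aurkb (suffix x) and of Mcm3, Mcm7 and Gins2 (suffix s) may bind related transcripts. Of 18194 genes 14045 exceeded the array's median on at least 2 arrays and were tested. Limma 3.58.1 (R 4.3.3) fitted all arrays with a mean per stage (12 residual degrees of freedom, eBayes with trend, two-sided, Benjamini-Hochberg within a comparison), and the script was tested on simulated data. The members, gene lists and comparisons were chosen with earlier results of these data known. Array values are given for the 3 largest called replication and mitosis genes of each long comparison, all cyclin D and inhibitor genes and those called in the test of late steps; Mcm10 and Pcna were added after their values were seen. Up to 4 called genes of another list are named per direction. RefSeq promoter sequences are of GRCm38.p6. Alternatives were other scalings, pseudocounts, filters, probe set averages, subsets of arrays, a replicate block and no minimum fold.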

Additional observations from a re-analysis of the deposited data

Results flagged for a closer look

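For 8 genes the change from E16.5 to E18.5 differed from the change from E12.5 to E14.5 in a test of the difference itself (limma, adjusted over all genes tested, and at least 2-fold). In each the last step was lower. The difference was -1.64 for Cdc6, -1.34 for Mki67, -1.23 for Ccna2, -1.21 for Ube2c and -1.15 for Birc5 in log2 units. It was -1.17 for Ccne2, whose call was lost without 6 of the 8 late arrays taken singly. It was -1.01 for Rrm2 and -1.002 for Aurka, both close to the 2-fold bound. In all 8 both E18.5 arrays lay below the other 6 late arrays.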

How the results depend on the processing

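Without a minimum fold the members called were 25 in E10.5 against E7.5 (12 replication, 10 mitosis), 39 in E18.5 against E12.5 (19 replication, 17 mitosis, 3 cyclin D and inhibitor), 7, 8, 12, 38, 6, 15 and 37 in the 7 steps from E8.5 against E7.5 to E18.5 against E16.5, and 25 in the difference of late steps. All counts that follow keep the 2-fold minimum. At that minimum the main setting called 1 member higher and 8 lower in E12.5 against E10.5, and 5 lower in E18.5 against E16.5. In E10.5 against E7.5 it called 2 replication members lower and 1 mitosis member higher. Under quantile normalization the members called were 5 in E12.5 against E10.5 and 10 in E18.5 against E16.5. They were 1 replication member in E10.5 against E7.5 and 3 cyclin D and inhibitor members in E18.5 against E12.5. With scaling by the 75th percentile they were 26 in E12.5 against E10.5 and 0 mitosis members in E10.5 against E7.5. By the mean of all probe sets they were 3 in E10.5 against E7.5 (0 replication), 0 in E16.5 against E14.5 and 2 cyclin D and inhibitor members in E18.5 against E12.5. Without the arrays numbered 1 up to E10.5, an alternative added after seeing the data, 1 replication member was called in E10.5 against E7.5. Fitting only the arrays of the same array set was also added after seeing the data and kept each count of members within 1.5 times. The cause of these shifts was not tested.

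Leaving out single arrays gave 0 to 1 members in E16.5 against E14.5 (0 without E16.5 replicate 1), 2 to 6 in E18.5 against E16.5 (2 without E18.5 replicate 1), 5 to 9 in the difference of late steps (5 without E12.5 or E18.5 replicate 1), 1 to 2 replication members in E10.5 against E7.5 (1 without E7.5 replicate 1 or 3 or E10.5 replicate 1) and 1 to 2 cyclin D and inhibitor members in E18.5 against E12.5 (2 without E12.5 replicate 1). Signs turned for Ccnd3 in E10.5 against E7.5 (-0.13 with scaling by the 75th percentile, -0.044 without the arrays numbered 1, -0.046 to 0.13 without single arrays), Cdkn1a there under quantile normalization (-0.058), Ccnd3 in E18.5 against E12.5 by the mean of probe sets (0.079), and Cdkn1b in E18.5 against E12.5 (0.038 under quantile normalization, 0.014 with scaling by the 75th percentile, -0.14 to 0.083 without single arrays). Over all alternatives to the values of named members, 836 kept their direction and side of the threshold, 61 no longer passed, 6 newly passed and 9 turned. Some alternatives cannot move the log2 change, such as no filter, no minimum fold or a fit to only the stages compared. The 836 are therefore not a count of independent checks.

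Replicate numbers were not taken as pairs in the main fit, although the arrays numbered 1 up to E10.5 deviated together. Deviations of same-numbered arrays of E7.5 and E10.5 correlated at 0.0259 to 0.140, and those of E12.5 and E18.5 at -0.0124. Between neighbouring stages they ran from 0.0363 to 0.282 up to E10.5, highest for the arrays numbered 1, and from -0.0464 to 0.135 from E12.5. With the number as a replicate block 6 members were called in E10.5 against E7.5, 21 in E18.5 against E12.5 and 9 in the difference of late steps.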
